A study of Mus musculus with 16 samples.

Results

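The 41 genes described here encode proteins of the coagulation and complement cascades, from tissue factor and the clotting factors through fibrinogen to the components and plasma regulators of complement. They were chosen by name and sorted by role into 10 lists, among 17882 genes listed for liver tumors and 17427 genes listed for tumors of both sites. All 41 were listed in the liver tumor table and 35 in the fat pad tumor table. Their RNA was measured in tumors of the mouse mammary carcinoma line 4T1 in 6-week-old female wild-type BALB/c mice. The fat pad groups (SC in the labels) came from 400000 cells placed in the mammary fat pad, and comprised 3 untreated (pre_SC) and 3 paclitaxel-treated (post_SC) libraries. The liver groups came from 200000 cells injected under the capsule of the left liver lobe, and comprised 5 untreated (pre_Liver) and 5 treated (post_Liver) libraries. Paclitaxel, a drug that stabilises microtubules, was given intraperitoneally (10 mg/kg on 5 days of each of 2 weeks), and controls were given PBS. Tumors grown for 15 days were digested with enzymes and the frozen cells were used for RNA, so host cells of the tumor and its surroundings are part of each library. The liver model places cells directly in the organ, all tumors came from 1 cell line, and site goes together with the number of cells implanted. The labels do not say whether untreated tumors were taken before dosing or with the treated ones, nor that each library came from its own mouse, so p-values measure the spread between libraries.

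Coagulation starts when tissue factor binds factor VII, runs through factor X and thrombin, and ends with fibrinogen being cut to fibrin and cross-linked by factor XIII. Complement starts from antibody complexes, from mannose-binding lectins or from its own C3 amplification loop, and ends in a membrane pore of the terminal components. Hepatocytes secrete most of these proteins into plasma. Tissue factor, thrombomodulin and the factor XIII A chain are known from other cells, and several complement genes are also expressed by fibroblasts, epithelia and macrophages.

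Values are TPM, the share of a library's transcripts taken by a gene corrected for its length, recomputed over the genes shared by the tables, and differences are on the scale of log2(TPM + 1) unless another scale is named. That scale understates the change of genes with low values. A gene was called where limma gave a Benjamini-Hochberg adjusted p under 0.05 over all genes tested. How deeply each library was sequenced is unknown, so errors here are those between libraries.

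The liver label was borne out by hepatocyte markers. The 16 markers summed to 33000 to 154900 TPM in untreated liver tumors, 3548 to 78620 TPM in treated ones and 7.03 to 67.5 TPM in fat pad tumors. None of the 15 listed in the fat pad table was at 0 in every library of a group. Treated liver replicates 2 and 3 held the least hepatocyte RNA and were the closest pair of libraries, with 0.837% of 13734 genes more than 2-fold apart against 1.78% to 47.8% in the other liver pairs. Carcinoma epithelium markers summed to 5935 to 8332 TPM in fat pad tumors, 1141 to 4593 TPM in untreated and 4657 to 7074 TPM in treated liver tumors. In bulk libraries of this kind, fewer cells of a type and less RNA per cell cannot be told apart.

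A gene was counted as also expressed in fat pad tumors where all 3 untreated or all 3 treated fat pad libraries reached 1 TPM, and as liver-restricted otherwise. By this rule 18 genes were also expressed in fat pad tumors and 23 were liver-restricted. The 18 were F3, F7, F10, F13a1, Proc, Pros1, Thbd, C1ra, C1s1, C2, C4b, Masp1, Masp2, C3, Cfb, C6, C8g and Vtn. The classes were cut from the fat pad values, so the lower fat pad levels of the restricted class are no finding. The gene just inside the limit was Vtn, with all treated fat pad libraries at 1.07 TPM or more. Just outside stood Serpinc1, whose untreated libraries began at 0.24 TPM. Of the 23 restricted genes, 17 were listed in the fat pad table and 6 (F11, F13b, Mbl1, C8b, C9 and C4bp) were not. For these 6 the untreated fat pad values were restored from the table of untreated libraries, and the highest was 0.1 TPM, for C8b and C9 in replicate 2.

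**Figure D1:**
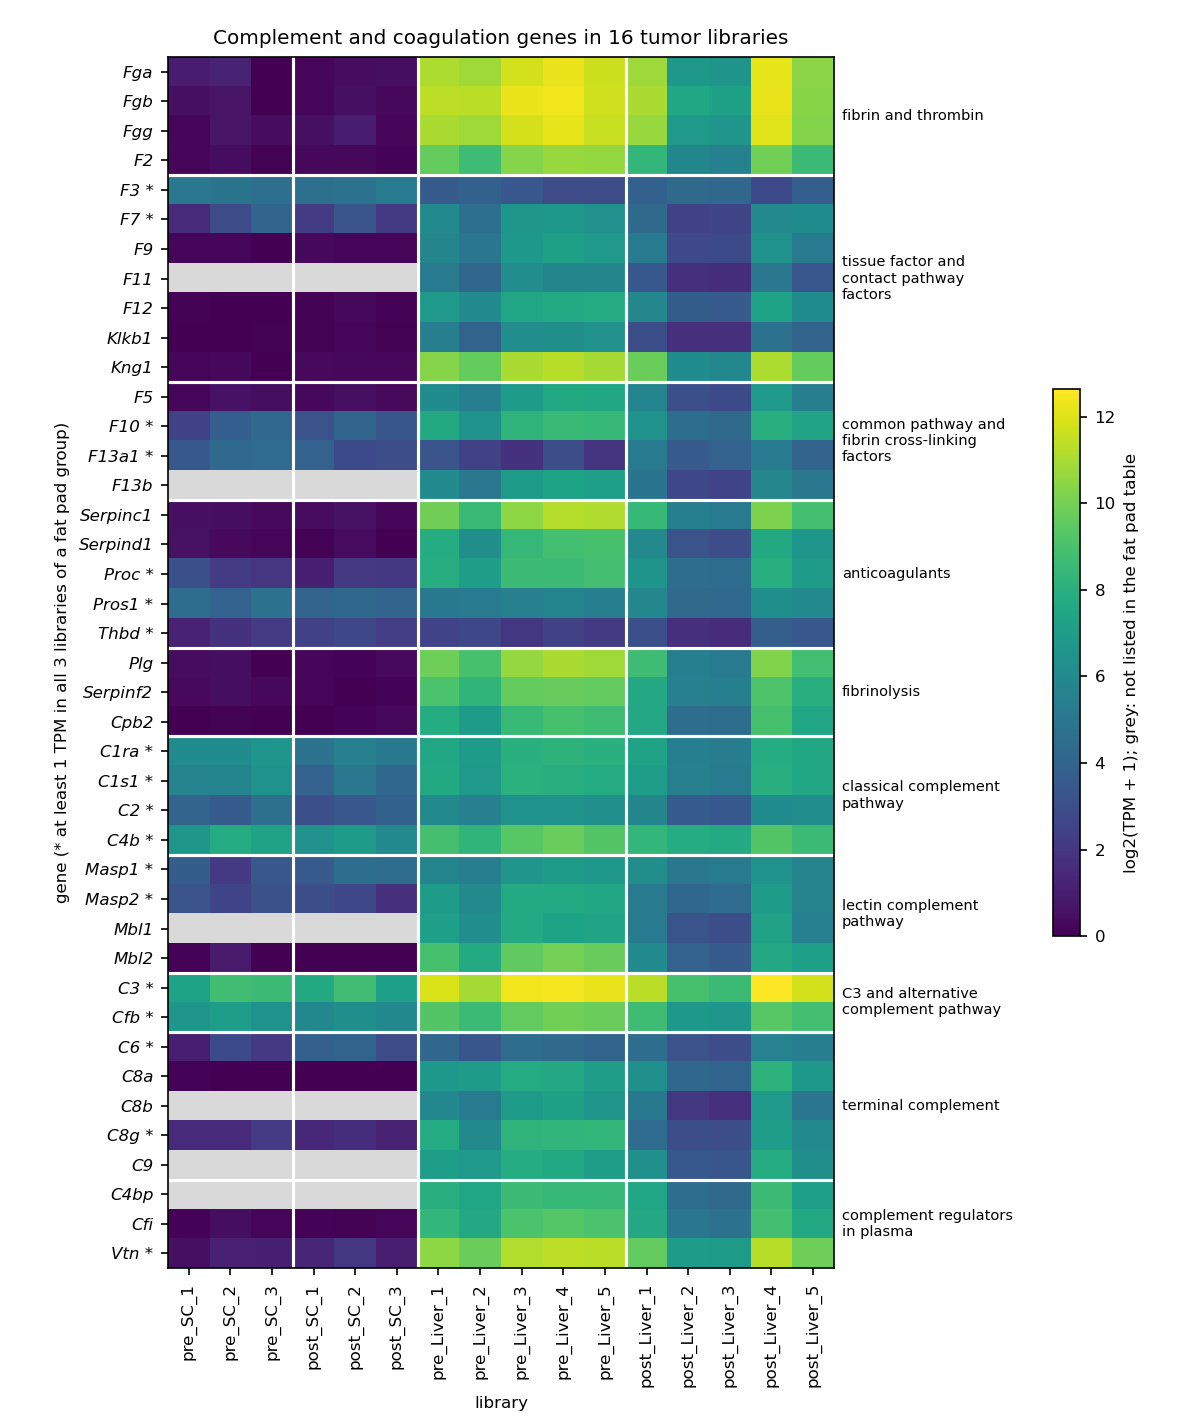
Level of each of the 41 genes (rows, grouped by role, an asterisk for the 18 genes also expressed in fat pad tumors) in each of the 16 libraries (columns), with color giving log2(TPM + 1) and grey marking the 6 genes not listed in the fat pad table. Most rows are bright in the liver libraries and dark in the fat pad libraries, treated liver replicates 2 and 3 are dimmer than the other liver libraries in most rows, and F3 and F13a1 run against this pattern.

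The fibrinogen chains carried the widest gaps between the sites among the 35 genes tested. Fgb, the fibrinogen beta chain (chromosome 3, 83040141 to 83049863, minus strand, GRCm38), was at 2702, 2595, 4892, 5373 and 3350 TPM in the untreated liver libraries and at 0.41, 0.58 and 0 TPM in the untreated fat pad libraries. Before treatment the difference was 11.43 ± 0.30 (SE; limma adjusted p = 3.76e-07), the largest among the 35 genes tested at both sites. Liver-restricted genes were classed by their low fat pad values, so for Fgb and those given below such p-values add no support. In treated tumors Fgb was at 2096, 182, 147, 4698 and 1335 TPM in the liver and at 0.11, 0.42 and 0.21 TPM in the fat pad. The sites did not overlap in either state. The alpha and gamma chains, Fga and Fgg, differed by 10.80 ± 0.39 and 11.04 ± 0.31 before treatment, and F2, the gene for prothrombin, by 9.78 ± 0.43. In the 10 liver libraries the chains kept close proportions, with Fga at 0.581 to 1.06 and Fgg at 0.597 to 0.95 times the level of Fgb in TPM.

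The sequence in front of these genes is shown because the fibrinogen genes lie side by side and moved together, while C3 and tissue factor differ from them in where they were expressed. Fga and Fgb lie 6.5 kb apart and Fga and Fgg 11 kb apart on chromosome 3. RefSeq windows of 250 bases before and 50 bases after the start (GRCm38.p6) matched 32 of the 41 genes, and those of Kng1, Proc, Thbd, Plg, C2, C4b, Masp1, Cfb and Cfi were not among them. The windows were searched on both strands for the HNF1 motif GTTAAT, the C/EBP motif TTGCNNAA, the NF-kB motif GGGNNTTCC, the AP-1 motif TGANTCA and the HIF motif ACGTG. The 160 bases up to the RefSeq start follow, 5′ to 3′ on the gene's strand, with matches to the HNF1, C/EBP and AP-1 letters in capitals.
Fga, chr3:83025993-83026152, plus strand: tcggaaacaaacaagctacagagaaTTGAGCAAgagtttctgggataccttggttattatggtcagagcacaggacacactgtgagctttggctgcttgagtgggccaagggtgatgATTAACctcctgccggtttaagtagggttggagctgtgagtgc
Fgb, chr3:83049864-83050023, minus strand: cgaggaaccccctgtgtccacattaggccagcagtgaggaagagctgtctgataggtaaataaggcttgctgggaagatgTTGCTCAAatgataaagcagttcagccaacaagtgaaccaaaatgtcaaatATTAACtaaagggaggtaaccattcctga
Fgg, chr3:83007564-83007723, plus strand: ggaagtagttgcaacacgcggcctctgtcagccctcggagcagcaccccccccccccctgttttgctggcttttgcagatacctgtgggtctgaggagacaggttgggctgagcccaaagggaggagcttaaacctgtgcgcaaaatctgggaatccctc
C3, chr17:57228137-57228296, minus strand: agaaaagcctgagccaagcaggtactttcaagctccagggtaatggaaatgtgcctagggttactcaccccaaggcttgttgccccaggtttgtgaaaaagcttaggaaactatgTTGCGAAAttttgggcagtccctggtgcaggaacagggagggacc
F3, chr3:121723377-121723536, plus strand: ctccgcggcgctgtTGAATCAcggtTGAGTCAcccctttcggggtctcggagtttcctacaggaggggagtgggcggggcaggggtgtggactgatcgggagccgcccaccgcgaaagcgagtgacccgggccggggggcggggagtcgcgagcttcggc
Fga and Fgb each held 1 HNF1 motif, starting 43 and 29 bases before the start, and 1 C/EBP match, starting 135 and 80 bases before it. The Fgg stretch held neither, although Fgg moved with its neighbours. C3 held 1 C/EBP match starting 45 bases before the start, and F3 held 2 AP-1 matches starting 146 and 135 bases before it. The Fgb window also held 1 AP-1 match, starting 173 bases before the start and so outside the stretch shown. Over the windows of the 41 genes, the HNF1 motif was found in 9 of 32 genes, 28.1% against 8.24% of all 27025 genes with a window. The C/EBP motif was found in 11 of 32, 34.4% against 12.2%. For AP-1 the count was 4 (12.5% against 8.97% of all genes), for HIF 6 (18.8% against 21.8%) and for NF-kB 1, in Fgb (3.12% against 6.58%). Among liver-restricted genes 7 of 20 held the HNF1 motif, and among genes also expressed in fat pad tumors 2 of 12. These matches describe the letters of the windows and not bound sites.

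Before treatment, 32 of the 35 genes tested were called higher in liver than in fat pad tumors and 2 lower, while limma called 47.4% of all 13648 genes, 14.9% higher and 32.6% lower. Of the 18 genes also expressed in fat pad tumors, 15 were called higher and 2 lower, with a median difference of 2.43, against −0.51 over all genes tested. The other 17 were classed by their low fat pad values, so their higher liver values add no support. Genes with a fat pad mean under 1 TPM passed the filter on low values through the liver libraries alone. With no filter the counts were again 32 and 2, but all 35 genes had passed the filter, so this adds no support. With scaling by the median of ratios, a choice that moved the median of all genes to −0.02, 33 of the 35 genes were higher and 1 lower. The untreated liver and fat pad libraries did not overlap for 34 of the 35, with 32 above (16.6% of all genes) and 2 below (34.8%). After treatment the liver libraries lay above the fat pad libraries without overlap for 27 genes (14.1% of 13952 genes) and below for F3 (13.7%). The other 7, F7, F13a1, Thbd, C1ra, C2, C3 and C6, overlapped. The treated sites were set side by side with no test. Untreated libraries of both sites also stand in 1 table, treated ones do not, and levels set across sites rest on the rescaling of separately made tables.

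Tissue factor ran the other way from the factors it activates. F3, which encodes tissue factor, was at 32.4, 27.9 and 23.8 TPM in untreated fat pad tumors and at 11.5, 13.9, 9.74, 6.31 and 6.47 TPM in untreated liver tumors. After treatment it was at 24.5, 25.6 and 35.6 TPM in the fat pad and at 14.2, 20.0, 17.8, 6.01 and 13.2 TPM in the liver, so every fat pad library stood above every liver library in both states. Its untreated difference was −1.50 ± 0.28 (SE; limma adjusted p = 0.0051). Over all genes tested, 32.6% were called lower in untreated liver tumors and 34.8% lay below the fat pad without overlap. Carcinoma epithelium markers were also lower there (median −2.46), and their part in the F3 values was not tested. Among the liver libraries F3 was highest where hepatocyte RNA was lowest, with treated replicates 2 and 3 on top.

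F7 and F10, the neighbouring genes of factors VII and X (1.5 kb apart on chromosome 8), were expressed at both sites. F7 was at 1.95, 6.28 and 16.6 TPM in untreated and 3.74, 8.58 and 3.43 TPM in treated fat pad tumors. In the liver it was at 63.7, 23.8, 102, 106 and 84.5 TPM before and 19.3, 4.55, 5.32, 60 and 69.6 TPM after treatment. Its untreated difference was 3.25 ± 0.64 (limma adjusted p = 0.0067), and the 2 lowest treated liver libraries lay within the fat pad range. F10, the leading gene of the common pathway by liver level, was at 4.41, 12.8 and 19.0 TPM in untreated and 8.55, 15.8 and 9.59 TPM in treated fat pad tumors. The liver values of F10 were 206, 90.2, 293, 380 and 350 TPM before and 85.5, 22.7, 19.9, 246 and 164 TPM after treatment. F10 differed by 4.37 ± 0.55 before treatment (limma adjusted p = 0.00071), and its sites did not overlap in either state.

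The contact pathway and factors V and IX were liver-restricted. Kng1, which encodes kininogen and led this list, was at 1292, 797, 2112, 2507 and 1980 TPM in untreated and 882, 70.7, 59.6, 2145 and 803 TPM in treated liver tumors. All 6 fat pad libraries held at most 0.263 TPM of it, and the untreated difference was 10.5 ± 0.36 (limma adjusted p = 9.19e-07). Kng1 has a near-identical copy, Kng2, so the split of reads between them is uncertain. F12 (factor XII), Klkb1 (plasma prekallikrein), F9 and F5 differed by 7.15 ± 0.38, 5.63 ± 0.52, 6.16 ± 0.47 and 6.32 ± 0.49, all higher in liver. F11 and F13b, not listed in the fat pad table, averaged 46.5 ± 20.8 and 103.8 ± 53.6 TPM (SD, n = 5) in untreated liver tumors.

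F13a1 was the only gene of this set besides F3 called lower in untreated liver tumors. It encodes the A chain of factor XIII, the enzyme that cross-links fibrin, and is known as a product of macrophages and the platelet lineage, while the B chain gene F13b is a hepatocyte gene. F13a1 was at 10.0, 18.7 and 20.7 TPM in untreated and at 15.0, 6.19 and 6.81 TPM in treated fat pad tumors. Its untreated liver values of 8.91, 4.52, 2.61, 7.12 and 2.77 TPM all lay below the fat pad values, with a difference of −1.55 ± 0.40 (limma adjusted p = 0.018). That call ended with median-of-ratios scaling (−1.08, limma adjusted p = 0.0604) and without pre_SC replicates 2 or 3 (0.0651 and 0.0758), within a range of 0.0116 to 0.0758 over the alternatives.

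Anticoagulant genes split between the classes. Serpinc1, which encodes antithrombin, was at 957, 367, 1430, 2442 and 2255 TPM in untreated and 354, 43.6, 34.7, 1147 and 464 TPM in treated liver tumors, against at most 0.492 TPM in any fat pad library. Its untreated difference was 9.82 ± 0.57, and that of Serpind1 (heparin cofactor II) 7.70 ± 0.55. Proc, the gene for protein C, was expressed at both sites at very different levels. It was at 7.36, 3.81 and 3.02 TPM in untreated and 1.18, 3.31 and 3.17 TPM in treated fat pad tumors. In the liver Proc was at 232, 134, 410.1, 397 and 466.1 TPM before and 91.0, 21.8, 21.4, 243 and 121 TPM after treatment, and it differed by 5.78 ± 0.44 before treatment (limma adjusted p = 3.85e-05).

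The genes of the cofactors of protein C stood closer between the sites than Proc. Pros1, which encodes protein S, was at 21.6, 14.6 and 26.3 TPM in untreated and 15.5, 18.3 and 15.4 TPM in treated fat pad tumors. It was at 33.3, 37.6, 43.8, 50.4 and 41.1 TPM in untreated and 57.5, 19.5, 18.7, 78.2 and 62.3 TPM in treated liver tumors. Pros1 was higher in the liver by 0.98 ± 0.22 before treatment (limma adjusted p = 0.012), without overlap in either state. With a spread shared by all 4 groups that call ended (limma adjusted p = 0.0534). Thbd, the thrombin receptor thrombomodulin of endothelium, was at 1.35, 2.56 and 3.66 TPM in untreated and 4.70, 5.74 and 3.84 TPM in treated fat pad tumors. Its liver values were 4.82, 5.74, 3.20, 4.41 and 3.43 TPM before and 7.37, 2.24, 2.07, 12.95 and 9.79 TPM after treatment. Thbd was the 1 gene of the 35 not called between untreated sites, at 0.63 ± 0.27 (limma adjusted p = 0.079), although it was called higher in liver with median-of-ratios scaling (1.01, limma adjusted p = 0.014) and on the values as deposited (0.76, 0.039).

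The fibrinolysis genes of this set were liver-restricted. Plg, which encodes plasminogen, was at 916, 499, 1591, 2133 and 1829 TPM in untreated and 416, 42.5, 36.5, 1228 and 454 TPM in treated liver tumors. No fat pad library exceeded 0.369 TPM, and the untreated difference was 9.97 ± 0.45 (limma adjusted p = 2.95e-06). Serpinf2, the plasmin inhibitor alpha-2-antiplasmin, and Cpb2, the carboxypeptidase that protects fibrin, differed by 8.92 ± 0.33 and 8.17 ± 0.41.

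The classical complement genes were expressed at both sites, and all 4 were called higher in untreated liver tumors by 1.49 to 2.00. C1ra and C1s1, the proteases of the C1 complex, lie 6.9 kb apart on chromosome 6. C1ra was at 68.2, 69.8 and 94.5 TPM in untreated fat pad tumors and 193, 128, 263, 286 and 260 TPM in untreated liver tumors. C1s1 was at 49.7, 50.8 and 89.0 TPM and at 202, 115, 264, 249.7 and 216 TPM in the same groups. Their untreated differences were 1.49 ± 0.28 (limma adjusted p = 0.0059) and 1.71 ± 0.31 (limma adjusted p = 0.005). Each has a near-identical copy, C1rb and C1s2, so their values are uncertain, and C1rb held 0.0841 to 0.163 times the TPM of C1ra over all groups.

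C4b, the highest by liver level of the 4 classical genes in this set, was at 103, 221 and 156 TPM in untreated and 83.8, 123 and 63.3 TPM in treated fat pad tumors. The liver values of C4b were 483, 308, 652, 857 and 608 TPM before and 330, 224, 214, 620.2 and 390 TPM after treatment, above the fat pad in both states. Its untreated difference was 1.84 ± 0.36 (limma adjusted p = 0.0067), and reads shared with its copy C4a make it uncertain. C2, which supplies the protease of the C3 convertase, was at 16.5, 12.0 and 24.6 TPM in untreated and 7.44, 9.87 and 14.2 TPM in treated fat pad tumors. In the liver C2 was at 62.3, 44.9, 89.8, 89.2 and 80.5 TPM before and 54.6, 11.7, 10.3, 71.1 and 71.2 TPM after treatment, with an untreated difference of 2.00 ± 0.30 (limma adjusted p = 0.0018). Its 2 lowest treated liver libraries fell within the treated fat pad range.

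In the lectin pathway the proteases were shared and the lectins were not. Masp1 was at 12.4, 3.42 and 9.69 TPM in untreated and 11.3, 22.8 and 21.3 TPM in treated fat pad tumors, and Masp2 at 8.84, 5.29 and 7.91 TPM and 7.08, 5.59 and 2.42 TPM. In the liver Masp1 was at 50.7, 41.2, 93.8, 125 and 108 TPM before and 73.7, 32.7, 36.8, 89.1 and 49 TPM after treatment. Masp2 was at 121, 61.4, 212, 211 and 186 TPM before and 36.2, 18.3, 20.6, 119.9 and 49.2 TPM after. Both stood above the fat pad without overlap in either state, and differed before treatment by 3.18 ± 0.47 (limma adjusted p = 0.0018) and 4.15 ± 0.41 (limma adjusted p = 0.00019). Mbl2, a mannose-binding lectin and the leading gene of the list in liver, was at 0.1, 0.87 and 0 TPM in untreated fat pad tumors and 0 in all 3 treated ones. It differed by 8.85 ± 0.49 before treatment (limma adjusted p = 6.46e-06).

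Among the 41 genes, C3 had the highest mean TPM of the complement genes at both sites. C3, the component on which the pathways converge (chromosome 17, 57203970 to 57228136, minus strand), was at 161, 430.4 and 403 TPM in untreated and 205, 431 and 141 TPM in treated fat pad tumors. The liver libraries held 3832, 1974, 5257, 5732 and 4739 TPM before and 2596, 497, 388, 6381 and 3471 TPM after treatment. Untreated sites did not overlap (3.73 ± 0.45, limma adjusted p = 0.00055), whereas treated liver replicate 3 lay below the highest treated fat pad library. Cfb, the factor B protease of the amplification loop, lies 85 bases from C2 on chromosome 17. It was at 98.9, 129.6 and 84.6 TPM in untreated and 58.1, 77.8 and 58.8 TPM in treated fat pad tumors. In the liver Cfb was at 618, 392, 770.0, 1003 and 866 TPM before and 417, 105, 97.9, 660.4 and 464 TPM after treatment, and the untreated difference was 2.75 ± 0.32 (limma adjusted p = 0.00042). Over the 10 liver libraries Cfb held 6.52 to 11.2 times the TPM of C2, while in the fat pad the range was 3.43 to 10.8.

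The terminal components were mostly liver-restricted, with C6 the clearest exception. C6 was at 1.09, 6.18 and 3.22 TPM in untreated and 13.8, 15.6 and 6.77 TPM in treated fat pad tumors. In the liver it was at 17.01, 9.5, 21.98, 19.7 and 16.1 TPM before and 22.3, 8.32, 6.86, 47.4 and 41.4 TPM after treatment. Its untreated difference was 2.12 ± 0.41 (limma adjusted p = 0.0062), and the treated sites overlapped. C8g, the gamma chain of C8 and the leading gene of the list in liver, was low in the fat pad at 1.89, 1.98 and 3.74 TPM before and 1.65, 2.16 and 1.40 TPM after treatment. Its liver values were 218, 65.9, 302, 318 and 333 TPM before and 20.3, 7.22, 6.82, 135 and 62.6 TPM after treatment, and it differed by 5.97 ± 0.52 before treatment. C8a was liver-restricted and differed by 7.17 ± 0.26. C8b and C9, not listed in the fat pad table, averaged 91.3 ± 44.9 and 161 ± 50.2 TPM (SD, n = 5) in untreated liver tumors.

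Among the plasma regulators Vtn, which encodes vitronectin and blocks the terminal pore, had the widest gap of any gene counted as shared. It was at 0.45, 1.2 and 1.16 TPM in untreated and 1.6, 3.2 and 1.07 TPM in treated fat pad tumors, against 1419, 870.1, 2288, 2702 and 2594 TPM and 776, 125, 116, 2506 and 934 TPM in the liver. Before treatment it differed by 9.90 ± 0.39 (limma adjusted p = 1.71e-06). Cfi, the protease that inactivates C3b and C4b, differed by 8.39 ± 0.37, and C4bp, not listed in the fat pad table, averaged 303 ± 91.6 TPM (SD, n = 5) in untreated liver tumors.

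**Figure D2:**
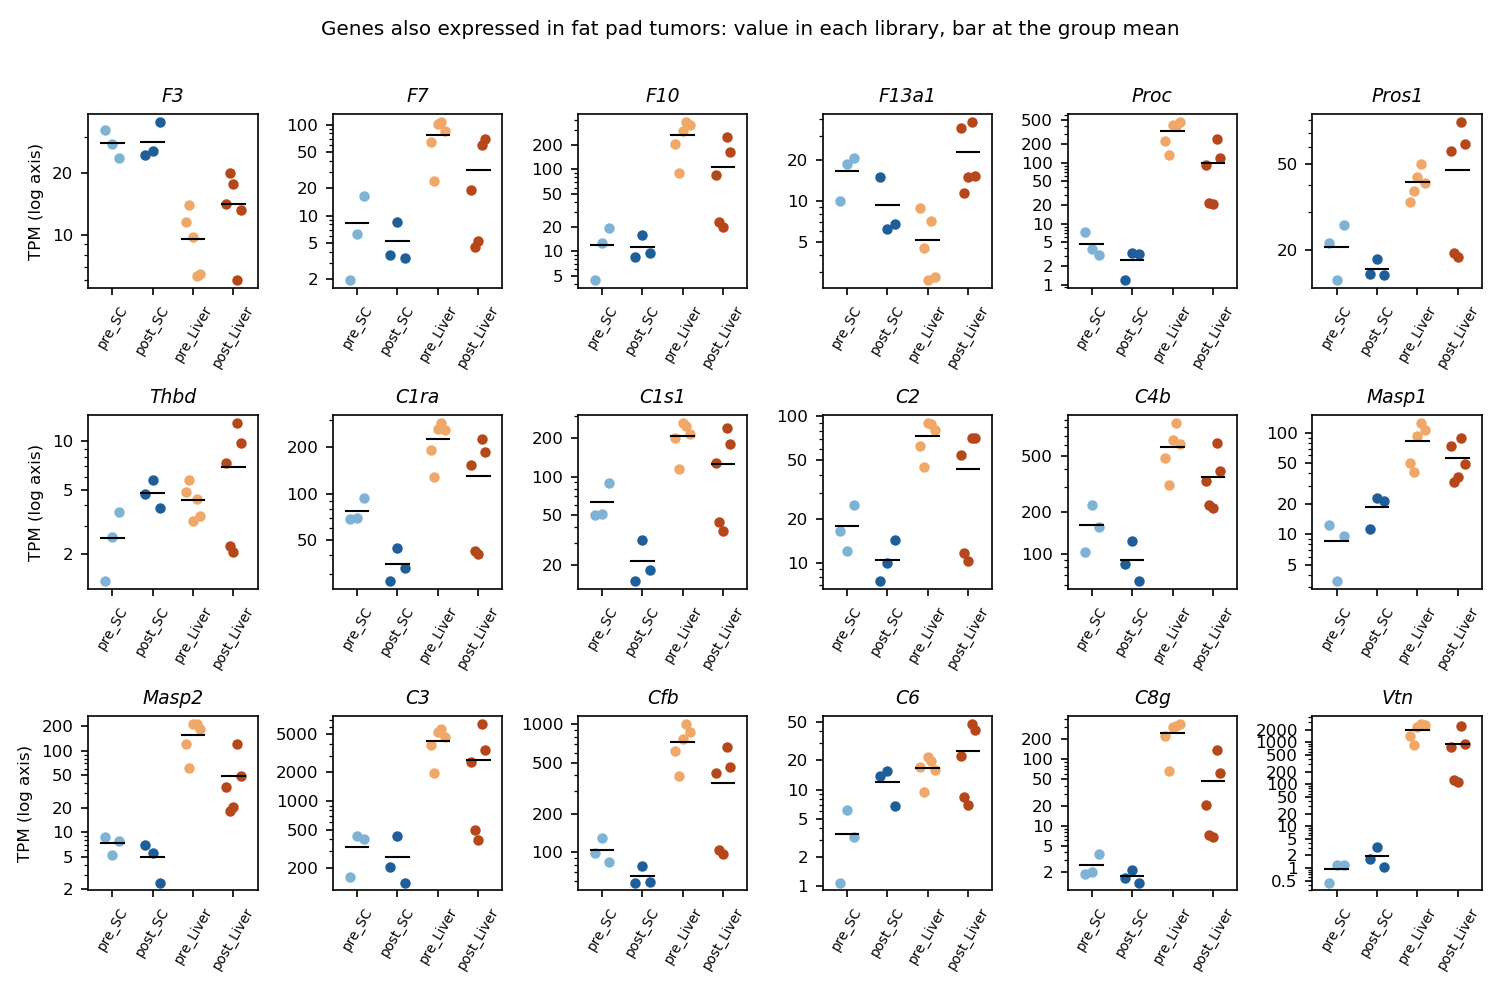
TPM (log axis, a scale of its own in each panel) of the 18 genes also expressed in fat pad tumors, with 1 point per library in each of the 4 groups and a bar at the group mean. F3 stands highest in the fat pad groups, C1ra and C1s1 are lower in post_SC than in pre_SC, and F13a1 is the panel in which every post_Liver point lies above every pre_Liver point.

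In fat pad tumors, the C1 protease genes were lower after paclitaxel and no gene of the set was called higher. Of the 18 genes that passed the filter, 2 fell (limma called 6.95% of 13366 genes, 2.68% higher and 4.27% lower), and the median change of the 18 was −0.36 against −0.03 over all genes. The 17 other listed genes did not pass the filter and have no value here. C1ra was at 27.1, 44.4 and 33.2 TPM in treated tumors, each below all 3 untreated values, with a fall of 1.14 ± 0.21 log2 units (limma, adjusted p = 0.027). C1s1 was at 14.9, 31.4 and 18.5 TPM in treated tumors, again without overlap, with a fall of 1.52 ± 0.32 log2 units (limma, adjusted p = 0.036).

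Both calls ended when any 1 library other than post_SC replicate 2 was left out. For C1ra the limma adjusted p was 0.0742, 0.0792, 0.103, 0.0627 and 0.0569 without pre_SC replicate 1, 2 or 3 or post_SC replicate 1 or 3, and 0.494 with a spread shared by all 4 groups. For C1s1 these limma adjusted p values were 0.0853, 0.0885, 0.116, 0.0886, 0.0776 and 0.339, and it was 0.0573 with no filter and 0.052 without a trend. Over their alternatives they ranged from 0.0202 to 0.494 and from 0.0225 to 0.339, with the same direction throughout. The other classical genes, C4b and C2, changed by −0.81 ± 0.32 and −0.69 ± 0.30 without a call (limma adjusted p = 0.154 and 0.194).

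Several shared genes lay apart between fat pad groups without passing the test. Treated libraries lay above untreated ones without overlap for C6 (1.64 ± 0.48, limma adjusted p = 0.08) and Thbd (0.75 ± 0.29, 0.151), and below for Cfb (−0.67 ± 0.19, limma adjusted p = 0.075) as for C1ra and C1s1. Over all genes tested, 16% lay above and 18.7% below without overlap, so the counts of 2 and 3 in 18 are near the background. Masp1 differed by 1.12 ± 0.44 (limma adjusted p = 0.152), C3 by −0.39 ± 0.49 and F3 by 0.02 ± 0.19. Of 10 endothelium markers 7 were called higher and none lower in treated fat pad tumors, and their sum was 116 to 182 TPM in untreated and 303 to 352 TPM in treated libraries. Fibroblast markers gave 0 calls of 10, with sums of 1771 to 2460 TPM and 1535 to 2134 TPM. The part of these cell types in the values of the complement genes was not tested.

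In liver tumors most of the set was lower after paclitaxel on average, and 2 genes were called. Of the 41 genes, 1 rose and 1 fell (limma called 3.66% of 13843 genes, 2.35% higher and 1.3% lower). The change was negative for 37 of the 41, with a median of −1.88 against 0.39 over all genes tested. It was −2.19 over the 23 liver-restricted genes and −1.09 over the 18 shared ones. With median-of-ratios scaling the median of all genes was 0.03 and that of the 41 genes −2.28. In that setting limma called 0 of the 41, with 33 at an unadjusted p under 0.05 (3454 of all 13803 genes). Quantile normalization also gave 0 calls by limma, with 27 at an unadjusted p under 0.05 (3436 of all 13843 genes). Without post_Liver replicate 4, the treated library richest in hepatocyte RNA, 22 genes fell and 1 rose (876 and 1179 of all 13848 genes). Without pre_Liver replicate 2, the untreated library poorest in it, 12 fell and 1 rose (1045 and 3058 of all 13837 genes). With a spread shared by all 4 groups, 12 of 35 fell and 1 rose (805 and 1828 of all 13875 genes). Without pre_Liver 3, 4 or 5 or post_Liver 1 or 3 no gene of the set was called by limma. In those fits 13 to 28 of the 41 were at an unadjusted p under 0.05, as were 2722 to 3257 of all genes tested (13800 to 13891). Without both post_Liver 2 and 3, the near-alike pair, the median of the 41 was −0.61 and 1 gene was called (162 of all 13699 genes).

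Hepatocyte RNA moved with these values. The summed hepatocyte markers were lower in treated liver tumors by 2.39 on the log2 scale (exact two-sided permutation p = 0.0397), and without 1 library at a time that p lay between 0.0159 and 0.0794. The test counted the near-alike treated replicates 2 and 3, lowest in these sums, as separate libraries. They were never left out together, so the test cannot show the difference without both. By library the sums were 65870, 33000, 97500, 139100 and 154900 TPM before and 30150, 4197, 3548, 78620 and 32810 TPM after treatment, and the groups overlapped. All 16 hepatocyte markers had a negative change, from −5.01 to −1.44 with a median of −2.13, and 1, Fabp1, was called. Treated liver tumors also held more RNA of neutrophil markers (7 of 8 called higher, sums of 152 to 1091 TPM before and 2417 to 16800 TPM after) and platelet and megakaryocyte markers (6 of 8 called higher, sums of 13.6 to 29.2 and 59.7 to 103 TPM).

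F13a1 was the gene of the set that rose in liver tumors. It was at 34.4, 11.4, 15.0, 37.8 and 15.2 TPM after treatment, each above all 5 untreated values (as for 5.14% of all genes), and rose by 1.90 ± 0.41 (SE; limma adjusted p = 0.032). Treated replicates 1 and 4 were highest. The mean of its partner F13b went the other way, from 103.8 TPM before to 25.7 TPM after treatment. Within the treated libraries F13b was at 27.8, 5.67, 4.75, 57.55 and 32.8 TPM, and both genes were highest in replicate 4. The call ended with median-of-ratios scaling (1.55, limma adjusted p = 0.0905), with quantile normalization (0.0793) and without pre_Liver replicate 3, 4 or 5 or post_Liver replicate 1, 3 or 5 (0.101, 0.0591, 0.0924, 0.0912, 0.0631 and 0.0535). Without both pre_Liver 4 and 5 it was 1.87 (limma adjusted p = 0.177). Over its alternatives the adjusted p ranged from 0.0041 to 0.177, and the direction stayed positive. Macrophage markers without Apoe summed to 322 to 512 TPM before and 261 to 1345 TPM after treatment, with 0 of the 10 macrophage markers called. The part of platelet and macrophage RNA in the rise was not tested.

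Mbl2 was the gene that fell. It went from 500.3, 214, 742, 1032 and 837 TPM to 68.2, 14.5, 11.5, 194 and 138 TPM without overlap (1.53% of all genes lay below), a change of −3.51 ± 0.80 (limma adjusted p = 0.042). The related lectin gene Mbl1 went from 141, 72.4, 209, 160.2 and 165 TPM to 36.2, 8.84, 7.13, 154 and 46.6 TPM, with overlap, at −2.28 ± 0.73 (limma adjusted p = 0.089). Mbl2 held 2.95 to 6.44 times the TPM of Mbl1 in untreated and 1.25 to 2.97 times in treated liver libraries, so the ranges met only at their ends. The call of Mbl2 ended with median-of-ratios scaling (limma adjusted p = 0.0619), with quantile normalization (0.0549) and without pre_Liver replicate 1, 3, 4 or 5 or post_Liver replicate 1, 2 or 3 (0.0677, 0.122, 0.111, 0.114, 0.093, 0.1 and 0.082). Without both pre_Liver 4 and 5 the change was −3.06 (limma adjusted p = 0.29), and without both post_Liver 2 and 3 it was −2.25 (0.0802). Its range over the alternatives was 0.0064 to 0.29, always negative.

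Across roles the liver values of the 23 restricted genes were all negative, from −3.51 to −1.31, with none but Mbl2 called. Fibrinogen chains and F2 lay between −2.34 and −2.15, with limma adjusted p of 0.105 or more, and fibrinolysis genes between −2.57 and −1.58. Plasma regulators, including the shared gene Vtn, lay between −1.91 and −1.75. Classical complement genes, which belong to the shared class, lay between −1.11 and −0.74. The shared gene C8g, at −3.06 ± 0.81 (limma adjusted p = 0.063), and Klkb1, at −2.62 ± 0.67 (0.057), came nearest to the threshold after Mbl2. F3, Thbd and C6 had positive values of 0.49 ± 0.32, 0.33 ± 0.43 and 0.24 ± 0.52, and Pros1 was at −0.02 ± 0.40, none of them called.

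**Figure D3:**
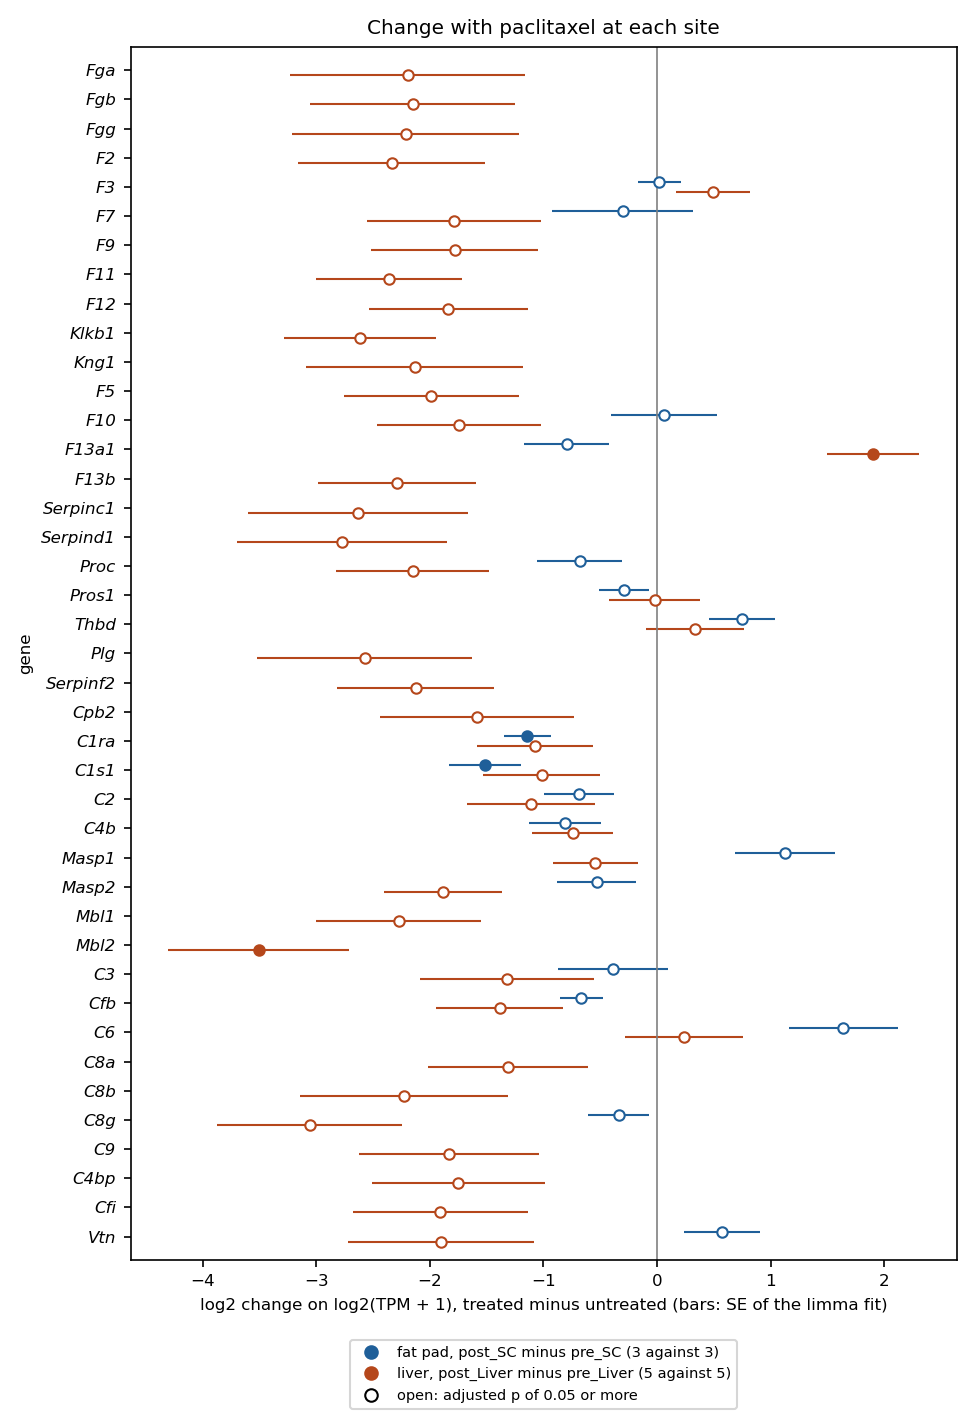
Change with paclitaxel (log2 scale, treated minus untreated) of each gene at each site, with bars for the SE of the limma fit, filled points for adjusted p under 0.05 and no fat pad point for genes that did not pass the filter or were not listed. Most liver points lie between −1 and −3 with wide bars, the filled points are C1ra and C1s1 in the fat pad and F13a1 and Mbl2 in the liver, and the F13a1 points lie on opposite sides of 0.

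Set against the hepatocyte markers of the same library, most of the spread among liver tumors was shared with them. Each gene's TPM (plus 0.1) was divided by the summed hepatocyte markers and is given per 1000 TPM of these markers. The sum includes Fabp1, the marker called lower after treatment. For the 23 liver-restricted genes the median SD over the 10 liver libraries was 1.82 for the log2 level and 0.39 for the log2 ratio, and the ratio had the smaller SD in 23 of 23, against 6.27% of 13843 genes tested in liver. For the 18 shared genes the medians were 1.16 and 0.90, with the smaller SD for the ratio in 11. F2 was the steadiest, with levels 35.1-fold apart and ratios of 10.2 to 13.4 per 1000. Fgb had ratios of 21.6 to 78.6 per 1000 in untreated and 40.7 to 69.5 in treated liver tumors. Level and hepatocyte sum share each library's composition, and over the 10 libraries their Pearson correlation on the log2 scale was 0.94 or higher for all 23 restricted genes. For shared genes it ran from −0.87 for F3 and −0.36 for F13a1 to 0.99. The median over shared genes was 0.96, and for 12 of the 18 it was above 0.9.

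A few genes departed from the hepatocyte markers after treatment. The ratio lay above the untreated range in all treated libraries for 6 of the 41 genes (4.14% of all genes tested) and below for 2 (0.361%). The 6 were F9, F13a1, Cpb2, C3, C6 and Cfi, and the 2 were Mbl2 and C8g. C3 was at 58.2, 59.8, 53.9, 41.2 and 30.6 per 1000 before and 86.1, 119, 109.5, 81.2 and 106 per 1000 after treatment. C6 was at 0.26, 0.291, 0.227, 0.142 and 0.105 before and 0.744, 2.01, 1.96, 0.604 and 1.26 per 1000 after. These complement genes were thus higher relative to hepatocyte RNA, although neither was called by level. Both were also expressed in fat pad tumors, where treated libraries held 141 to 431 TPM of C3 and 6.77 to 15.6 TPM of C6. Treated liver replicates 2 and 3, lowest in hepatocyte RNA, held 497 and 388 TPM of C3 and 8.32 and 6.86 TPM of C6. The part of RNA from other cells in these ratios was not tested. Mbl2 was at 7.6, 6.48, 7.61, 7.42 and 5.41 per 1000 before and 2.27, 3.48, 3.26, 2.46 and 4.22 per 1000 after, and so was lower by level and by ratio.

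With the log2 hepatocyte sum as a term in the liver fit, 5 of the 41 genes were called (limma called 2.51% of 13843 genes) and the median of the 41 was 0.22. In that fit F13a1 rose by 2.43 ± 0.48 (limma adjusted p = 0.037), C6 by 1.57 ± 0.27 (0.028), Pros1 by 0.99 ± 0.21 (0.045) and Cpb2 by 0.78 ± 0.17 (0.049), against a background of 1.9% called higher. Mbl2 fell by 1.33 ± 0.24 on the log2 scale (limma adjusted p = 0.029; 0.614% called lower). C3 was at 0.72 ± 0.24 (limma adjusted p = 0.134) and C8g was not called. The hepatocyte sum differed between the groups itself, so this fit cannot fully tell treatment and hepatocyte RNA apart.

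**Figure D4:**
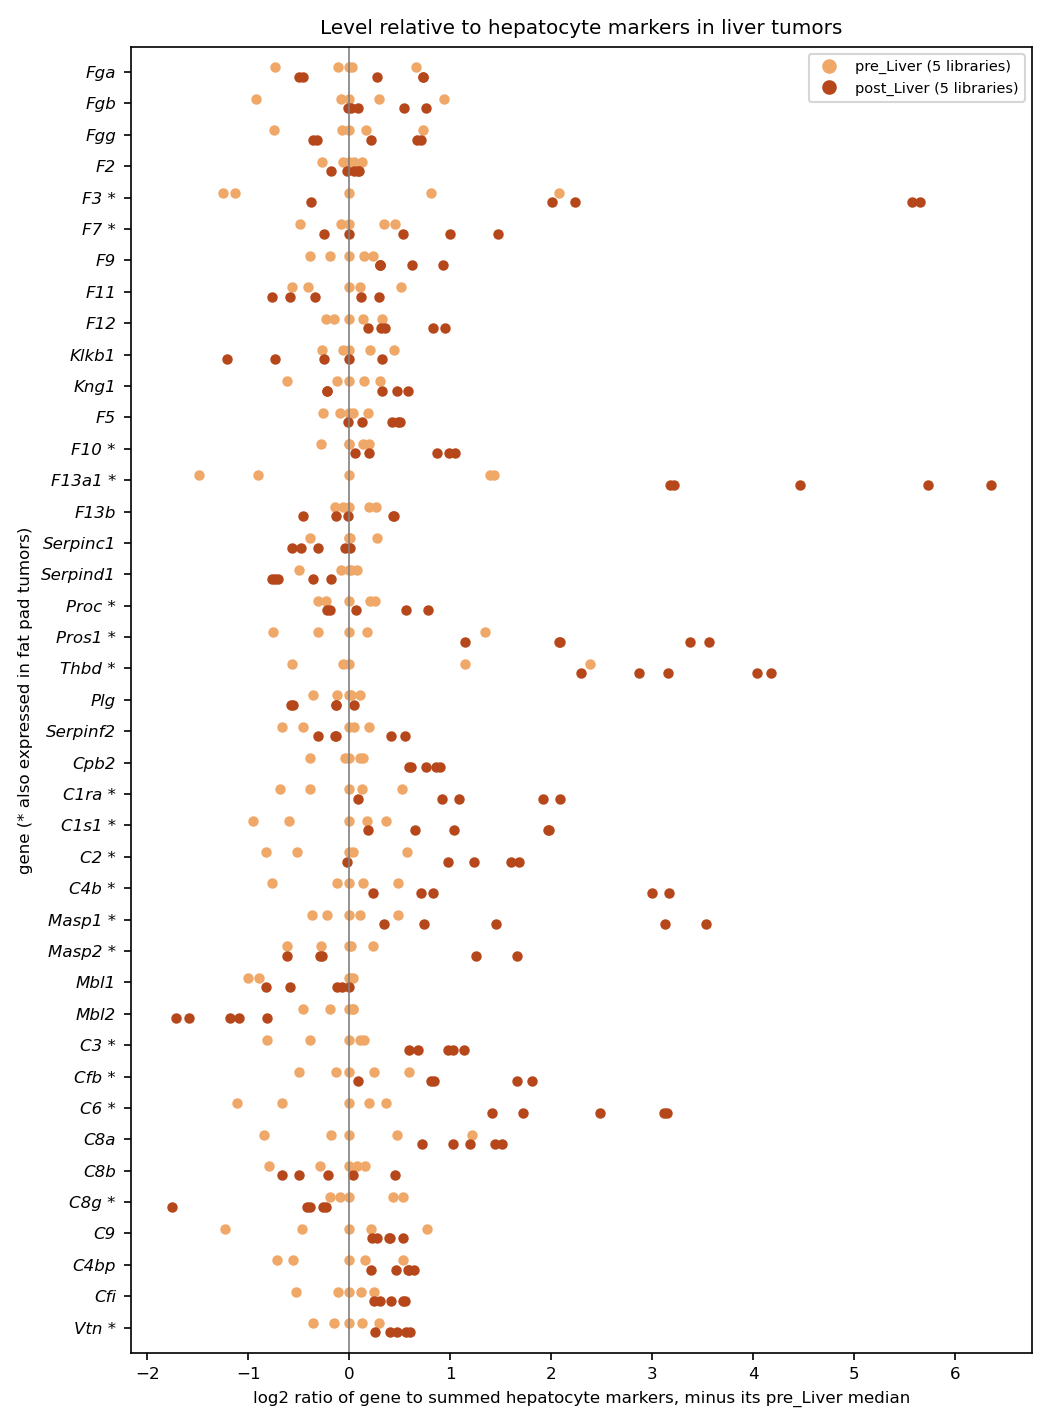
Log2 ratio of each gene to the summed hepatocyte markers in each liver library, minus the gene's median over the 5 untreated libraries, with 1 point per library and an asterisk for genes also expressed in fat pad tumors. Most liver-restricted genes stay within about 1 unit of 0 in both groups, C3, C6, Cpb2 and F13a1 lie to the right after treatment without overlap, and Mbl2 and C8g to the left.

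**Figure D5:**
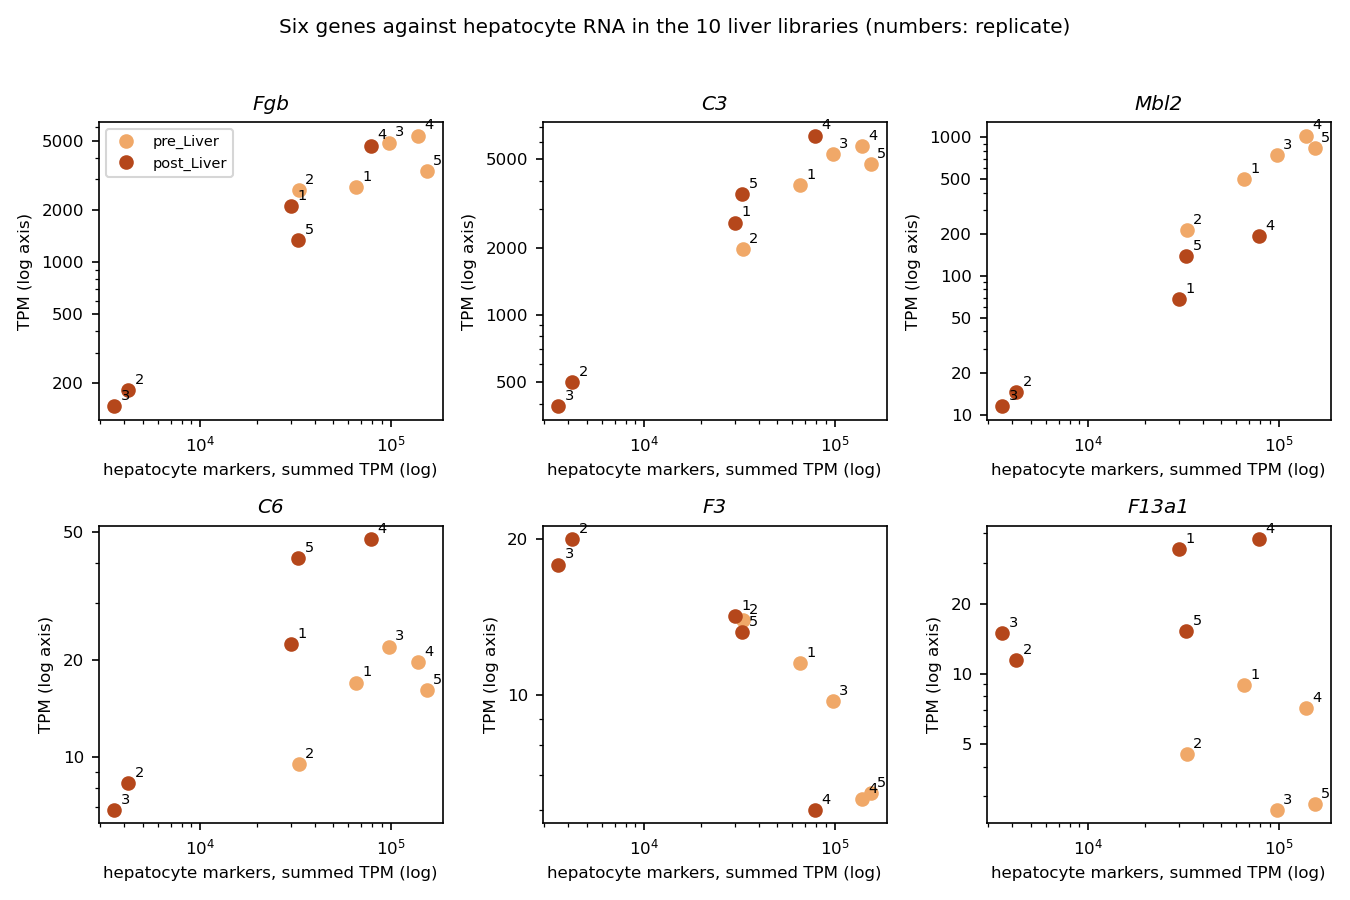
TPM of 6 genes against the summed TPM of hepatocyte markers (both log axes) in the 10 liver libraries, numbered by replicate, with 5 untreated and 5 treated libraries in different colors. Fgb follows the hepatocyte markers through both groups, the treated points of C3 and C6 lie above and those of Mbl2 below untreated points of like hepatocyte level, and F3 and F13a1 do not increase with the hepatocyte markers.

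The responses of the sites were compared in 1 fit of the 4 groups, which uses the same untreated libraries as the comparisons above. Of 35 genes tested, 1 was called, as larger in liver (limma called 2.98% of 13875 genes, 2.19% larger and 0.786% smaller in liver). F13a1 had a response larger in liver than in fat pad tumors by 2.70 ± 0.64 (limma adjusted p = 0.038), from a rise of 1.90 in the liver and a change of −0.80 ± 0.37 in the fat pad that was not called (limma adjusted p = 0.212). This call ended with median-of-ratios scaling (2.30, limma adjusted p = 0.0894), with quantile normalization (0.0838), and without any of pre_SC 1, 2 or 3, post_SC 2 or 3, pre_Liver 3 or 5 or post_Liver 1 (0.0519, 0.0939, 0.119, 0.0838, 0.0875, 0.076, 0.0679 and 0.0712), within 0.0188 to 0.119 over the alternatives. For the C1 proteases, called in the fat pad, the difference in response was 0.07 ± 0.72 for C1ra and 0.50 ± 0.75 for C1s1 and was not called (limma adjusted p = 0.958 and 0.668), and errors of this size leave room for large differences. The median over the 35 genes was −1.75, against 0.38 over all genes. Mbl2 had the lowest value, −3.16 ± 1.11 (limma adjusted p = 0.113).

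Related genes of the cascades, 53 in 6 lists, gave a mixed picture between untreated sites. Of 49 tested, 21 were called higher in liver and 7 lower, against 14.9% and 32.6% of all genes. Among other complement components 8 were higher and 1 lower of 14, led by Hc, the gene of C5 (6.84 ± 0.50), Colec11 (4.55 ± 0.35) and Colec10 (3.37 ± 0.45), collectins of the lectin pathway. Of 10 complement regulators 7 were higher, among them Cfhr2 (7.64 ± 0.54) and the macrophage receptor Vsig4 (4.89 ± 0.39). Of 9 other coagulation genes 6 were higher and 1 lower, led by Serpina10 (8.26 ± 0.28) and Proz (6.85 ± 0.48), the protein Z system, and Vkorc1 (2.11 ± 0.30), the vitamin K reductase. Fibrinolysis genes outside the set went the other way, with 4 of 7 lower in liver and none higher, where 32.6% of all genes were called lower. Carcinoma epithelium markers were also lower in untreated liver tumors (10 of 12 called, median −2.46), and their part in these values was not tested. The lower fibrinolysis genes included the plasminogen activators Plau (−2.97 ± 0.81) and Plat (−1.55 ± 0.52). The thrombin receptor family had 1 lower of 3, F2rl1 (−3.11 ± 0.75), with F2r and F2rl2 at −0.63 ± 0.24 and −0.44 ± 0.23. None of 6 complement receptors was called, with C5ar1 (−0.85 ± 0.35), Itgax (−0.69 ± 0.34) and C3ar1 (−0.65 ± 0.39) nearest.

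In treated fat pad tumors 7 of 41 related genes fell and none rose, where 4.27% of all genes were called lower and 2.68% higher. Serping1, the inhibitor of C1r and C1s, fell by 1.22 ± 0.25 on the log2 scale (limma adjusted p = 0.035), alongside the proteases it controls. Cfp, the properdin that stabilises the C3 convertase, fell by 1.06 ± 0.19 (0.026). The complement receptor integrins Itgax, Itgb2 and Itgam fell by 1.89 ± 0.28, 0.78 ± 0.12 and 0.96 ± 0.20. Procr, the endothelial protein C receptor, fell by 0.71 ± 0.12 (limma adjusted p = 0.023). Not called were C4a (−1.01 ± 0.27), C1qb (0.42 ± 0.13), Cd46 (0.65 ± 0.22), Vwf (0.82 ± 0.24), Ggcx (−0.55 ± 0.18), Plgrkt (0.49 ± 0.16), Serpine2 (0.78 ± 0.31), F2rl2 (−0.92 ± 0.24), F2rl3 (0.68 ± 0.26) and F2r (0.54 ± 0.24).

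In treated liver tumors 2 of 50 related genes rose and none fell, a count near the share of all genes (2.35% called higher and 1.3% lower). Fcnb, a ficolin of myeloid cells that starts the lectin pathway, rose by 4.12 ± 0.52 (limma adjusted p = 0.0053). It was at 1.03, 1.32, 0.95, 8.05 and 1.02 TPM before and 53.7, 87.0, 55.4, 54.4 and 16.7 TPM after treatment. C5ar1, the C5a receptor, rose by 1.58 ± 0.30 (limma adjusted p = 0.023). These genes rose alongside the neutrophil markers given above, and the part of those cells was not tested. The next genes of each list, not called, were Hc (−2.12 ± 0.84), Colec10 (−1.16 ± 0.49), Cfhr2 (−2.29 ± 0.84), Cd59a (−1.59 ± 0.59), Itgam (1.51 ± 0.38) and Itgb2 (0.82 ± 0.31). So were Ggcx (−1.0 ± 0.34), Vkorc1 (−1.01 ± 0.35), Proz (−2.31 ± 0.81), Serpine2 (1.56 ± 0.58), Plaur (0.97 ± 0.53), Plgrkt (0.87 ± 0.51), F2rl1 (1.53 ± 0.66), F2r (0.56 ± 0.32) and F2rl2 (0.27 ± 0.21).

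Between the responses 4 of 51 related genes were called, all higher in liver than in fat pad (2.19% of all genes were called higher and 0.786% lower). They were Fcnb (4.40 ± 0.72) and the receptors C5ar1 (2.28 ± 0.49), Itgam (2.46 ± 0.54) and Itgax (2.34 ± 0.58), with limma adjusted p of 0.0076, 0.026, 0.028 and 0.043. Nearest among the others were Cfp (1.16 ± 0.48), Hc (−2.05 ± 1.18), Cd59a (−2.48 ± 0.87), Cfhr2 (−2.45 ± 1.16), Vkorc1 (−1.04 ± 0.47), Proz (−2.20 ± 1.11) and F8 (−0.95 ± 0.51). For fibrinolysis and thrombin receptor genes they were Plaur (1.27 ± 0.74), Serpinb2 (0.85 ± 0.70), F2rl2 (1.20 ± 0.31), F2rl1 (1.79 ± 0.93) and F2rl3 (−0.42 ± 0.33).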

How the data were processed

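The authors deposited 3 tables, whose units were read from the values. The deposited liver table holds FPKM, with column sums of 511644 to 547589. The deposited fat pad table holds TPM. The authors' untreated table is a score, TPM plus a constant per gene that is shared by 3 untreated liver and all untreated fat pad libraries and opposite in the other 2 liver libraries, with 2376 genes below 0. Per the submitters' processing notes, GRCm38/mm10, StringTie and fastp were used, in roles not stated. Strandedness, versions and annotation are not given in the sources used here. Without strand, reads of genes that overlap cannot be told apart.

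Liver FPKM and fat pad TPM were each rescaled to TPM over 17427 shared genes. The untreated table, planned as a source of expression values, served only to restore 6 genes and as an alternative. Date-like names (24) were left out. Genes with a mean of at least 1 TPM in a fit were tested as log2(TPM + 1) with limma 3.58.1 in R 4.3.3 (eBayes with trend), adjusted by Benjamini-Hochberg over all genes tested. Group was the only term, and the scripts were tested on simulated data. Sums were compared by exact permutation with SciPy 1.17.1. Python 3.11.15 was used throughout, with NumPy 2.4.6, matplotlib 3.10.9 for plots and pandas 2.3.3. Coordinates are GENCODE M21, counted from 1. Values are printed per library for Fgb, C3, the gene of each role list highest in untreated liver, every gene also expressed in the fat pad and every gene called after treatment, and of each related list for the 3 genes with the lowest adjusted p per comparison, as values of the fit; a few related genes that the rule picks are not reported here. The genes, lists and rules were chosen with earlier results of these data known. Alternatives were another pseudocount (0.1), no filter, other scalings, no trend, a spread shared by all groups, a replicate block, leaving out libraries, the deposited values and a hepatocyte term.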

Additional observations from a re-analysis of the deposited data

Results flagged for a closer look

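Treated liver replicate 4 stood apart from the other 4 treated liver libraries in 3 genes, by a gap test that marks a highest or lowest value whose distance to its neighbour takes most of the group's range. It held 31.9 TPM of F11 (factor XI), where the others held 2.15 to 10.2 TPM. It held 154 TPM of Mbl1, where the next library held 46.6 TPM, and 115 TPM of C8b, where the next held 33.2 TPM. The gap test was run on 82 groups of 5 values, and chance marks about 1 in 20 groups, so 3 marks are no more than that. The same library held 78620 TPM of summed hepatocyte markers, the most of any treated liver library.

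F13a1 was marked for a difference between the sites in its response to paclitaxel. The response in liver exceeded that in the fat pad by 2.70 ± 0.64 (SE; limma adjusted p = 0.038). F13a1 was higher in 5 of 5 treated liver libraries than in every untreated one, while fat pad groups overlapped.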

How the results depend on the processing

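Against 6475 genes called between untreated sites, 929 in the fat pad, 506 in the liver and 413 between the responses, leaving out 1 library at a time gave 2134 to 9341, 78 to 773, 120 to 4103 and 92 to 2599. Of the genes of this set, 2, 2 and 1 were called in the fat pad, in the liver and between the responses, and these counts became 0 to 2, 0 to 23 and 0 to 4. In the fat pad no filter gave 1 and no trend 1, and a shared spread gave 0 (109 of all genes). In the liver median-of-ratios scaling gave 0 (242 of all genes), quantile normalization 0 (337), a shared spread 13 (2633), the hepatocyte term 5, and leaving out pre_Liver 4 and 5 or post_Liver 2 and 3, chosen after seeing the data, 0 (83) and 1 (162). Between the responses both scalings gave 0. The cause was not tested. Without 1 library at a time the hepatocyte sum changed by −2.96 to −1.84 on the log2 scale, with post_Liver 2, 3 or both always kept.

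Same-numbered libraries did not pair in the fat pad, where correlations of their deviations were 0.13, −0.141 and −0.105. In the liver the correlations were uneven, at −0.126, 0.65, 0.058, 0.736 and 0.233. In the fat pad 1 of 6 and in the liver 4 of 10 libraries correlated best with their own number. A replicate block gave 3598 genes between untreated sites, 329 in the fat pad (0 of the set, with limma adjusted p of 0.0521 for C1ra and 0.0673 for C1s1), 3136 in the liver (22 of the set lower and 1 higher, 23 in all) and 1435 between the responses (4 of the set).

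Of the values under alternatives, 2321 kept direction and side of the threshold, 76 passed it, 50 no longer did and 60 changed sign. With the hepatocyte term liver values became C1ra 0.30, C1s1 0.36, C2 0.39, C3 0.72, C4b 0.09, C4bp 0.32, C8a 0.51, C8b 0.28, C9 0.24, Cfb 0.13, Cfi 0.22, Cpb2 0.78, F10 0.22, F12 0.10, F3 −0.24, F5 0.15, F7 0.19, F9 0.25, Fga 0.58, Fgb 0.18, Fgg 0.45, Kng1 0.47, Masp1 0.32, Plg 0.05, Pros1 0.99, Serpinc1 0.07 and Vtn 0.34. C6 in liver became −0.14 with median-of-ratios and −0.05 with quantile scaling. Pros1 in liver became 0.08 without pre_Liver 4 and 5 and 0.67 without post_Liver 2 and 3. Between the responses median-of-ratios scaling gave C1ra −0.40, C4b −0.40 and Pros1 −0.18, and quantile scaling Pros1 −0.07. Without post_Liver 2 and 3 these differences were C2 0.56, C3 0.32, Cfb 0.20 and Thbd 0.29.

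Without 1 library at a time, the values that changed sign, none of them called, ranged in the fat pad over F10 −0.48 to 0.47, F3 −0.15 to 0.13 and F7 −0.95 to 0.34, in the liver over C6 −0.07 to 0.58 and Pros1 −0.26 to 0.24, and between the responses over C1ra −0.21 to 0.40 and C4b −0.20 to 0.35. Depth is unknown, so values near 0 TPM have no counting limit, and the 5 liver libraries per group differed widely in hepatocyte RNA.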
